A study of Mus musculus with 6 samples.

Results

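The genes described here are 10 antiviral effectors that interferon induces: *Bst2*, *Rsad2*, *Cmpk2*, *Xaf1*, *Ifi44*, *Ifi35*, *Ifi27l2a*, *Rtp4*, *Ifitm3* and *Ifitm2*. They were taken by name from a table of 11604 genes, and all 10 had a row in it and passed the filter on low counts. RNA was sequenced from CT26, a transplantable colon carcinoma line of the BALB/c mouse, labelled as tumor cells of wild-type genotype. In 3 libraries the cells had received DMSO, the solvent control, and in 3 they had been exposed to 10 µM irinotecan (CPT-11), a prodrug of a topoisomerase I inhibitor, for 24 h. An exposure time for the DMSO libraries is not given. The labels do not say whether the replicates were separate cultures, so the p-values rest on a spread among samples that may be technical only. The design text of the series describes samples in duplicate, which conflicts with the 3 labelled libraries of each group; no library was set aside.

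Type I interferon binds a receptor on the cell surface, and the kinases JAK1 and TYK2 then activate a transcription factor complex that holds IRF9. This complex binds the interferon-stimulated response element (ISRE) in the promoters of its target genes. The products of those genes act at separate steps of a virus life cycle: IFITM proteins at entry, viperin and CMPK2 at nucleotide supply and genome replication, and tetherin at the release of particles. Tumor cells can run the same program without a virus.

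All 10 genes were higher with irinotecan at an adjusted p below 0.05 (edgeR's quasi-likelihood test, Benjamini-Hochberg over 11599 genes), and 0 were lower. The call of *Ifitm2* was narrow (edgeR adjusted p = 0.048) and was lost under 6 of 12 alternative settings, while the other genes kept theirs. Of all genes tested 22.1% passed, 11.8% as higher and 10.3% as lower. The median log2 fold change of the 10 genes was 0.91, beside 0.00026 for all genes tested. With libraries scaled by their totals alone these medians were 0.94 and 0.03. The changes of the 10 genes ran from 0.18 for *Ifitm2* to 1.42 for *Cmpk2*. In each of the 10 genes the 3 irinotecan libraries lay above the 3 DMSO libraries in CPM (counts scaled to the size of the library, TMM-normalized), which held for 19.3% of all genes. A change of at least 2-fold was reached by *Cmpk2* and *Ifi27l2a*, that is 2 of 10 genes, against 1.04% of all genes tested. That number was 1 without irinotecan replicate 1, where the log2 fold change of *Ifi27l2a* was 0.86. It was 5 without irinotecan replicate 2, where *Xaf1*, *Rsad2* and *Ifi44* passed the line; with all libraries they lay just below it at 1.99-fold, 1.94-fold and 1.92-fold.

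**Figure D1:**
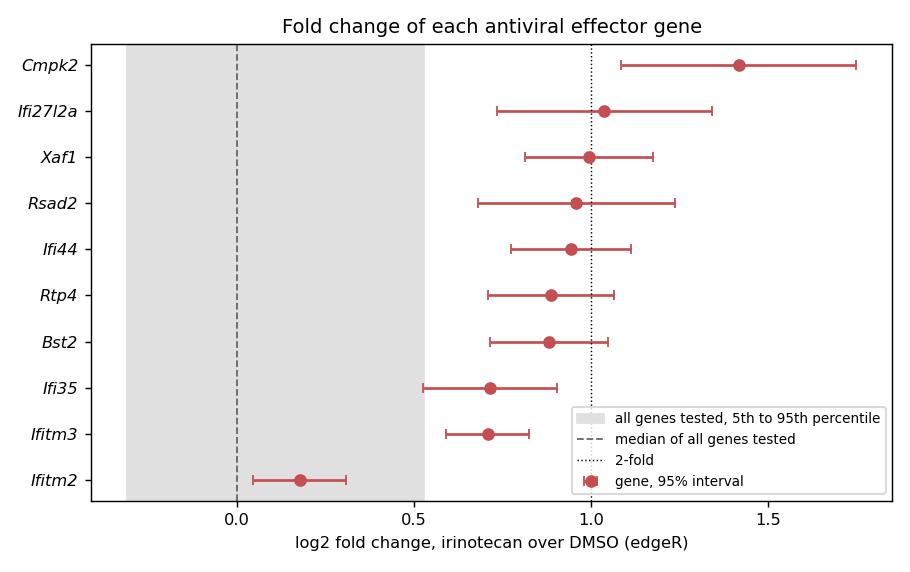
Log2 fold change of irinotecan over DMSO for each of the 10 genes on the x axis, with its 95% interval from edgeR (3 libraries per group). The grey band holds the 5th to 95th percentile of all genes tested, -0.31 to 0.53; *Ifitm2* at 0.18 lies inside it and the other genes lie to its right.

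The libraries held 16052326 to 17294496 counts each. The number of genes called higher over the whole table was 1369, and 804 without irinotecan replicate 1; higher genes made up 53.5% of the calls, or 66.1% when libraries were scaled by their totals alone. Of 14 haematopoietic markers 1 had a row in the table, *Cd68*, which went from 2.36 ± 0.612 to 4.01 ± 0.265 CPM (SD, n = 3; edgeR adjusted p = 0.018), which missed the threshold when replicate 1 or 3 of either group was left out (adjusted p at most 0.07 over 12 alternatives). Of 8 endothelial and fibroblast markers *Pdgfra* (log2 fold change 0.25) and *Pdgfrb* (-0.02) had one, and neither passed the test. Of 8 epithelial markers *Krt18* and *Krt20* had one, while *Epcam*, *Cdh1* and *Krt8* did not: *Krt18* fell by 0.23 (edgeR adjusted p = 0.025), which missed it when DMSO replicate 2 or irinotecan replicate 1 or 3 was left out (adjusted p at most 0.14), and *Krt20* stood at 45.5 and 46.7 CPM. The table holds no gene at 0, so the level of markers without a row is unknown, and the part of other cells in the results was not tested.

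The promoters shown here are those of the 4 genes that carry the ISRE core, searched as GAAANNGAAA on both strands of the 300 bases around the RefSeq transcription start (GRCm38.p6). Each is printed from 250 bases before the start through the first 30 transcribed bases, with matches to the core in capitals; on the printed strand the *Rsad2* match reads in the opposite orientation.
Bst2 (chr8:71537443-71537722, minus strand): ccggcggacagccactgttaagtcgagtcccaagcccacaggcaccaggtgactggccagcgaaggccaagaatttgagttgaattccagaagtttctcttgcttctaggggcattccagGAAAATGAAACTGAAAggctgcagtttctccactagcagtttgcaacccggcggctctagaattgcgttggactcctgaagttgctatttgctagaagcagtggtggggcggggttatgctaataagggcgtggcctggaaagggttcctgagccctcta
Rsad2 (chr12:26456423-26456702, minus strand): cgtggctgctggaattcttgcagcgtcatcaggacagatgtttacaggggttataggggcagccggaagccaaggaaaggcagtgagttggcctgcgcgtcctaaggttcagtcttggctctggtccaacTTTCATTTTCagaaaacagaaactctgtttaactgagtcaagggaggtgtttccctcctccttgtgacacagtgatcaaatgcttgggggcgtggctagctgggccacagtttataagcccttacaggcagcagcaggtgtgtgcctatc
Ifitm3 (chr7:141010715-141010994, minus strand): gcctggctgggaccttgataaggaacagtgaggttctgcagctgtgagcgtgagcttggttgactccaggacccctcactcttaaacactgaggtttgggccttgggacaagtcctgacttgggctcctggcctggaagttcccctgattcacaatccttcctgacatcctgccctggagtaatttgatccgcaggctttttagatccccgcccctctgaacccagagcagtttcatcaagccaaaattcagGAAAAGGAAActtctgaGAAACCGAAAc
Ifitm2 (chr7:140955932-140956211, minus strand): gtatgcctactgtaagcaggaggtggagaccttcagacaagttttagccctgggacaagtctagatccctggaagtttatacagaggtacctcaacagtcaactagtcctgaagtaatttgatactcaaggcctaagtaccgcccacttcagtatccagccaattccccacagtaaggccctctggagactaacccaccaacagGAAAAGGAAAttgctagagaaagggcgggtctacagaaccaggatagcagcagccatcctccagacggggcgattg
RefSeq's promoter table had an entry for 8 of the 10 genes, and 4 of these 8 promoters held the core, against 3.44% of all 32851 promoters. Of the promoters of other interferon-induced genes 20 of 30 held it, and of those of other restriction factors 4 of 23. *Bst2* carried overlapping matches at -130 and -124 from the start, *Rsad2* a match at -120, *Ifitm2* a match at -46, and *Ifitm3* matches at 3 and 20 within the transcribed part. The promoters of *Cmpk2*, *Xaf1*, *Ifi44* and *Ifi35* held no exact match to the ISRE core in this window. Variants of the core were not searched for, so these promoters may still hold an ISRE. The genes with an exact match include *Ifitm2*, with the smallest change of the 10, and not *Cmpk2*, with the largest. Whether the core goes with the size of the change was not tested. A second pattern, TTCNNNGAA (the GAS core), was searched in the same promoters. It occurred in 3 of the 8, those of *Bst2*, *Ifi35* and *Ifitm3*, against 8.3% of all promoters. Among other interferon-induced genes 7 of 30 promoters held it, and among other restriction factors 5 of 23. A match is a run of letters and does not show binding.

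*Ifitm3* and *Ifitm2* encode small membrane proteins that hinder the fusion of viruses with endosomal membranes. *Ifitm3* (ENSMUSG00000025492, chromosome 7, 140589499 to 140590683, GRCm39) stood at 260, 268 and 248 CPM in the DMSO libraries and at 466, 403 and 397 CPM in the irinotecan libraries. The groups were far apart relative to their spread, and the log2 fold change was 0.71 ± 0.056 (SE; edgeR adjusted p = 1.3e-08), the smallest p of the 10 genes. *Ifitm2* (chromosome 7, 140534750 to 140535900) stood at 71.9, 64.6 and 72.8 CPM with DMSO and at 80.3, 81.6 and 74.7 CPM with irinotecan. Its groups met closely, with the lowest irinotecan library 1.03 times the highest DMSO library, and the log2 fold change was 0.18 ± 0.063 (SE; edgeR adjusted p = 0.048). It missed the threshold with RLE size factors, with DESeq2, and when replicate 1 or 2 of either group was left out; over 12 alternatives its adjusted p ran from 0.011 to 0.22. The authors' deposited table gives *Ifitm2* an adjusted p of 0.077.

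The ratio of the IFITM pair within each library, which no scaling can alter, was also taken. It comes from the same counts as their fold changes and is no separate evidence of an unequal change. The count of *Ifitm3* was 3.62, 4.15 and 3.41 times that of *Ifitm2* in the DMSO libraries and 5.81, 4.94 and 5.32 times with irinotecan, so the groups did not overlap (exact permutation test, 2-sided, p = 0.1, the smallest that 3 against 3 libraries allow; 0.2 adjusted over 4 pairs of neighbouring genes, which were picked with their values known). *Ifitm1*, which lies between them on the other strand, went from 20.2 ± 2.32 to 34.1 ± 2.87 CPM (SD, n = 3). On the log2 scale it rose by 0.76 ± 0.094 (SE; edgeR adjusted p = 5.3e-06). The ratio of *Ifitm3* to *Ifitm1* was 12.9 ± 0.991 with DMSO and 12.4 ± 0.971 with irinotecan (SD, n = 3; exact permutation p = 0.5), with overlapping groups. Of the 50-base words in the *Ifitm2* transcript of GENCODE M21, 48.5% also occur in transcripts of other genes, among them *Gm45717* and the pseudogenes *Gm11951* and *Gm8865*, so its count is uncertain; for *Ifitm3* the share was 10%, and 20 words were common to a pair of IFITM transcripts.

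*Rsad2* and *Cmpk2* are divergent neighbours, 12752 bases apart on chromosome 12. *Rsad2* (26492745 to 26506451) encodes viperin, a radical SAM enzyme that turns CTP into a chain terminator of viral RNA polymerases. It stood at 5.84, 7.18 and 6.02 CPM with DMSO and at 11.8, 11.4 and 13.7 CPM with irinotecan, a log2 fold change of 0.96 ± 0.13 (SE; edgeR adjusted p = 2.7e-05). *Cmpk2* (26519203 to 26529836) encodes a mitochondrial kinase of pyrimidine nucleoside monophosphates. It stood at 4.90, 5.09 and 6.26 CPM with DMSO and at 17.5, 11.03 and 14.9 CPM with irinotecan, the widest spread of the 10 genes relative to its mean (22.4% in the irinotecan group). Its log2 fold change was 1.42 ± 0.16 (SE; edgeR adjusted p = 1.7e-06), with a 95% interval of 1.08 to 1.75. The interval of *Rsad2*, 0.68 to 1.24, overlaps it. The *Cmpk2* to *Rsad2* count ratio was 0.839, 0.709 and 1.04 with DMSO and 1.48, 0.964 and 1.09 with irinotecan, and these groups overlap (exact permutation p = 0.2), so a difference between the neighbours' changes was not shown.

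*Bst2* (chromosome 8, 71986899 to 71990100) encodes tetherin, which holds budding virus particles at the cell surface. It stood at 147, 169 and 141 CPM with DMSO and at 313, 265 and 264 CPM with irinotecan. All 3 irinotecan libraries lay at least 1.56 times above the highest DMSO library, and the log2 fold change was 0.88 ± 0.077 (SE; edgeR adjusted p = 4.6e-06). *Ifi44* (chromosome 3, 151436559 to 151455597), a cytoplasmic protein whose antiviral activity is known mainly from human cells, stood at 39.9, 48.6 and 49.2 CPM with DMSO and at 90.7, 79.1 and 95.04 CPM with irinotecan. Its log2 fold change was 0.94 ± 0.081 (SE; edgeR adjusted p = 1.2e-07). *Rtp4* (chromosome 16, 23339041 to 23432972), a zinc finger protein that assists the surface transport of receptors and inhibits flaviviruses, stood at 20.3, 22.9 and 20.2 CPM with DMSO and at 41.1, 35.6 and 40.5 CPM with irinotecan, a log2 fold change of 0.89 ± 0.086 (SE; edgeR adjusted p = 1.7e-07). The groups were clearly separated in both genes. The *Rtp4* row overlaps *Masp1* on the opposite strand by 525 bases, and *Masp1* was itself higher, by 0.45. Of the 50-base words in the *Rtp4* transcripts of GENCODE M21, 11.6% also occur in those of *Gm45338*. Whether the libraries kept strand is not given in the sources used here, and reads in the overlap cannot be told apart.

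*Ifi27l2a* (chromosome 12, 103408426 to 103409939) belongs to the ISG12 family of small hydrophobic proteins and restricts West Nile virus in the mouse brain. It stood at 9.23, 10.7 and 7.36 CPM with DMSO and at 22.9, 16.6 and 16.5 CPM with irinotecan. Irinotecan replicate 1 was well above the other two, and the log2 fold change was 1.04 ± 0.145 (SE; edgeR adjusted p = 5.3e-05). Its neighbour and paralog *Ifi27*, 1928 bases away, went from 76.7 ± 8.67 to 91.3 ± 1.88 CPM (SD, n = 3). On the log2 scale it rose by 0.25 (edgeR adjusted p = 0.01, and 0.0505 without irinotecan replicate 2, the highest of 12 alternatives). The ratio of *Ifi27l2a* to *Ifi27* counts was 0.119 ± 0.0219 with DMSO and 0.205 ± 0.0429 with irinotecan (SD, n = 3), with groups that do not overlap (exact permutation p = 0.1, and 0.2 adjusted over the 4 pairs).

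*Ifi35* (chromosome 11, 101339233 to 101349524) encodes a partner of NMI, known from human cells, and *Xaf1* (chromosome 11, 72192455 to 72204559) a zinc finger protein that in human cells binds XIAP and opposes its block of caspases. *Ifi35* stood at 14.2, 14.9 and 16.2 CPM with DMSO and at 25.6, 25.0 and 23.8 CPM with irinotecan, a log2 fold change of 0.71 ± 0.091 (SE; edgeR adjusted p = 7.7e-06). *Xaf1* was the steadiest gene with DMSO, at 16.9, 17.3 and 17.3 CPM, and stood at 37.1, 31.5 and 34.1 CPM with irinotecan. Its log2 fold change was 0.99 ± 0.087 (SE; edgeR adjusted p = 4.2e-08). Of their partners, *Nmi* rose by 0.75 ± 0.11 (SE; edgeR adjusted p = 7.3e-05) and *Xiap* by 0.22 ± 0.056 (edgeR adjusted p = 0.0072) on the log2 scale.

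**Figure D2:**
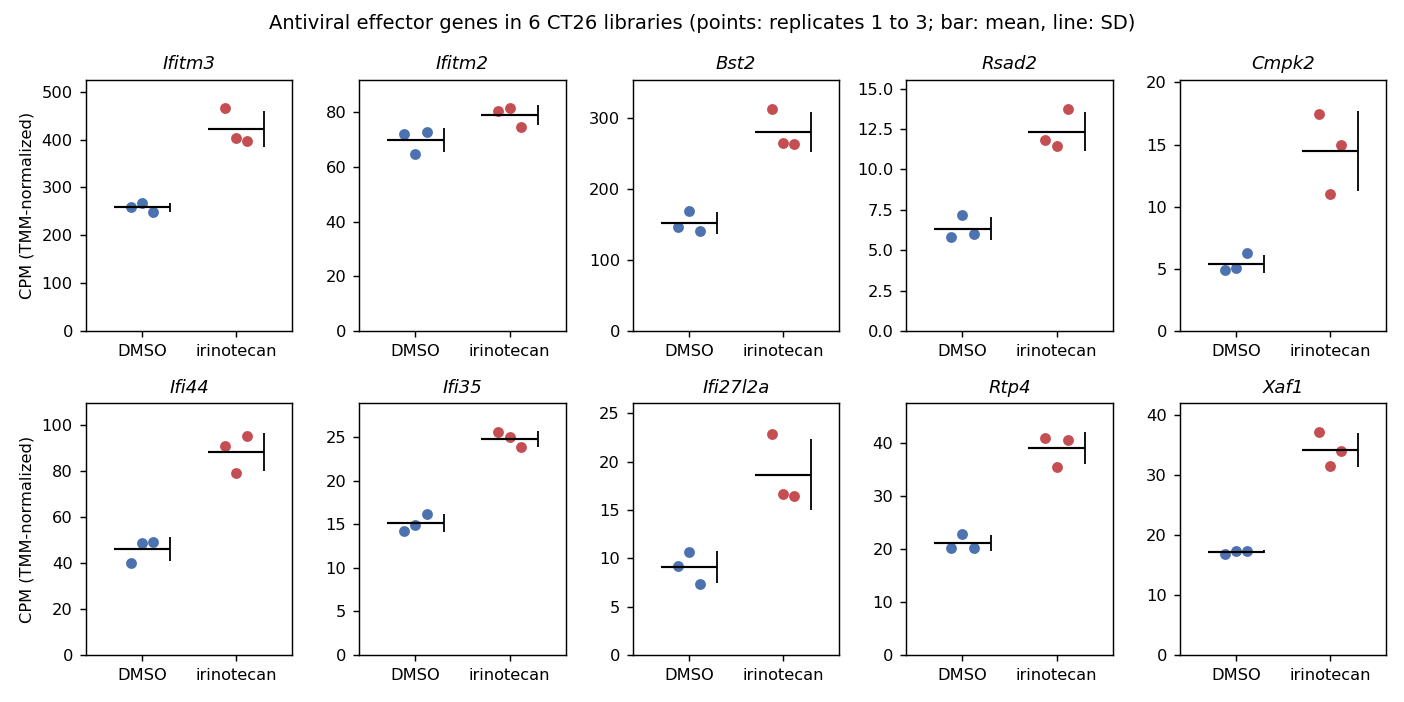
CPM (TMM-normalized, linear axis from 0) of each gene in the 3 DMSO and 3 irinotecan libraries; points are replicates 1 to 3, the horizontal bar is the mean and the vertical line the SD. The irinotecan points lie above the DMSO points in each panel, with the smallest gap in *Ifitm2* (72.8 against 74.7 CPM).

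Per gene length the 10 genes covered a wide range, from the FPKM values the authors deposited. With DMSO the order was *Ifitm3* at 377 ± 10.7, *Bst2* at 167 ± 14.6 and *Ifitm2* at 105 ± 7.83 FPKM (SD, n = 3), and *Ifitm2*, the lowest of the 3, had a level above 96.5% of all genes tested. *Ifi27l2a* followed at 19.4, *Rtp4* at 9.80, *Ifi35* at 8.65, *Ifi44* at 7.40 and *Xaf1* at 3.62 FPKM, and *Rsad2* and *Cmpk2* were lowest at 1.45 ± 0.152 and 1.29 ± 0.184 FPKM. Neighbours in this order had ranges that did not overlap, except *Rsad2* and *Cmpk2*. With irinotecan the same genes led, *Ifitm3* at 629 ± 56.6 and *Bst2* at 313 ± 31.6 FPKM, and 2 pairs had changed places, *Ifi44* (14.5) with *Ifi35* (14.5) and *Cmpk2* (3.51) with *Rsad2* (2.87), both with overlapping ranges. Summed, the 10 genes took 601 ± 23.6 CPM with DMSO and 1014 ± 80.8 CPM with irinotecan, of which *Ifitm3*, *Bst2* and *Ifitm2* gave 75.5% to 81.1% in every library. In bulk RNA a strong rise in some cells and a weak rise in all cannot be told apart.

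**Figure D3:**
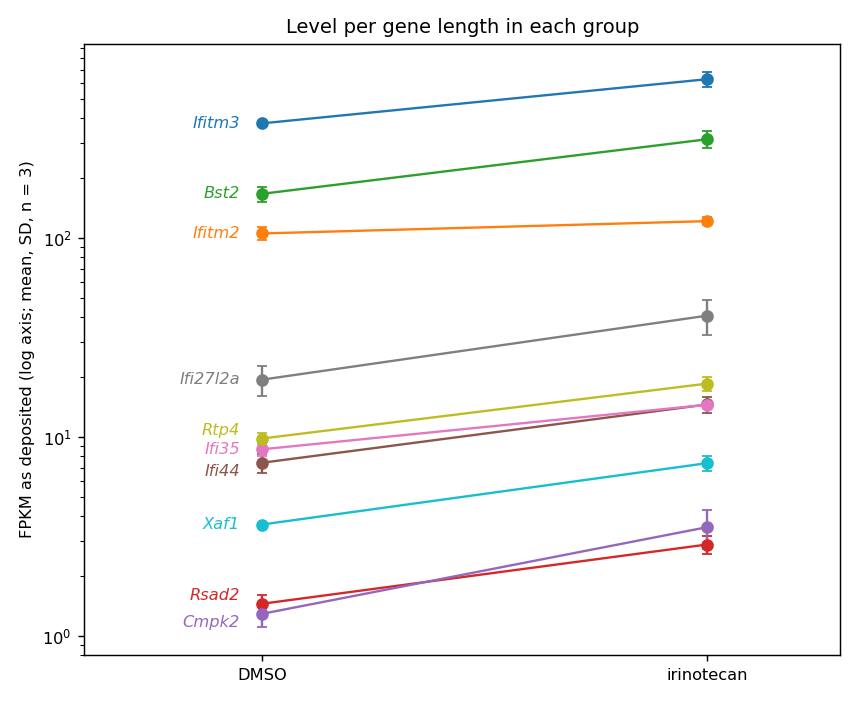
Mean FPKM as deposited, on a log axis, of each gene with DMSO and with irinotecan (error bars: SD, n = 3). The lines run nearly in parallel except that of *Ifitm2*, which is flatter (105 to 121 FPKM), and that of *Cmpk2*, which is steeper (1.29 to 3.51 FPKM).

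The irinotecan libraries differed in how far the genes had moved. Averaged over the 10 genes, log2 CPM exceeded its DMSO mean by 0.98 in irinotecan replicate 1, by 0.75 in replicate 2 and by 0.86 in replicate 3, while the DMSO libraries stayed between -0.06 and 0.06. Irinotecan replicate 1 held the highest value of its group in 7 of 10 genes and the lowest in 0, and the exceptions were *Rsad2* and *Ifi44*, highest in replicate 3, and *Ifitm2*, highest in replicate 2. Without irinotecan replicate 1, 9 of the 10 genes were still called higher and their median log2 fold change was 0.86, and the gene lost was *Ifitm2*. Counting error alone would give a log2 standard error of 0.1 for *Cmpk2* and 0.016 for *Ifitm3*, beside the fitted 0.16 and 0.056, so depth set much of the error of the former and the spread between libraries most of the latter.

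**Figure D4:**
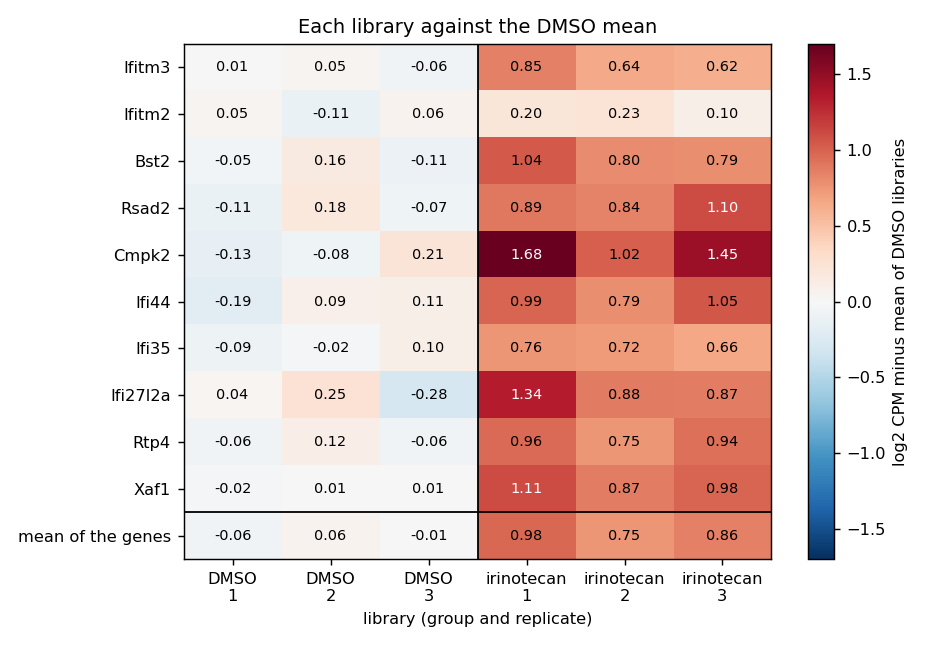
Log2 CPM of each gene (rows) in each library (columns) minus the mean of the 3 DMSO libraries, with the average of the 10 genes in the last row. DMSO values stay between -0.28 and 0.25, and the irinotecan values run from 0.10 in *Ifitm2* to 1.68 in *Cmpk2*.

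Around these genes, the interferon program was described with further lists. Of 33 other interferon-induced genes measured, 32 rose and 1 did not pass (*Tgtp1*); the median was 1.08 on the log2 scale, and 19 reached 2-fold. *Usp18*, the protease that removes ISG15, rose from 28.6 to 66.9 CPM, *Oasl2* by 1.13, *Oas2*, a synthetase of 2-5A, by 1.08 and *Parp12* by 0.87 on the log2 scale, beside *Ifit1*, a binder of foreign RNA, by 1.06 and *Isg15*, a ubiquitin-like modifier, by 0.78. Of 18 other restriction factors 14 rose and 4 did not pass, at a median of 0.48. *Pml* and *Sp100*, components of nuclear bodies, rose by 0.60 and 0.78, *Samhd1*, which depletes deoxynucleotides, by 0.51, *Mov10*, an RNA helicase, by 0.76 and *Eif2ak2*, the kinase PKR, by 0.53. *Zc3hav1* and *Plscr1*, chosen, like *Tgtp1* and *Cmpk1* here, after their values were seen, had log2 fold changes of -0.06 and -0.01 and did not pass (edgeR adjusted p = 0.52 and 0.92). Of 7 partners and paralogs measured, 4 rose, namely *Ifitm1*, *Nmi*, *Xiap* and *Ifi27*, and *Cmpk1*, the cytosolic relative of *Cmpk2*, had a log2 fold change of 0.08 (edgeR adjusted p = 0.41).

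Of 18 genes of interferon receptors and signalling 8 rose and 10 did not pass, at a median of 0.16. *Stat2* rose by 1.06 ± 0.11 and *Irf9*, its partner in binding the ISRE, by 0.26 ± 0.062 (SE; edgeR adjusted p = 4.2e-05 and 0.0045). *Irf7*, a transcription factor that amplifies the response, rose by 1.40 ± 0.082 and *Irf1* by 0.46 ± 0.096. The receptor chains *Ifnar1* and *Ifnar2* had log2 fold changes of -0.07 ± 0.062 and -0.14 ± 0.094 (SE; edgeR adjusted p = 0.49 and 0.33). Of 20 interferon genes looked for, 0 had a row in the table analysed here. Lowly counted genes were removed from it before deposit, so the level of the interferon genes is unknown.

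**Figure D5:**
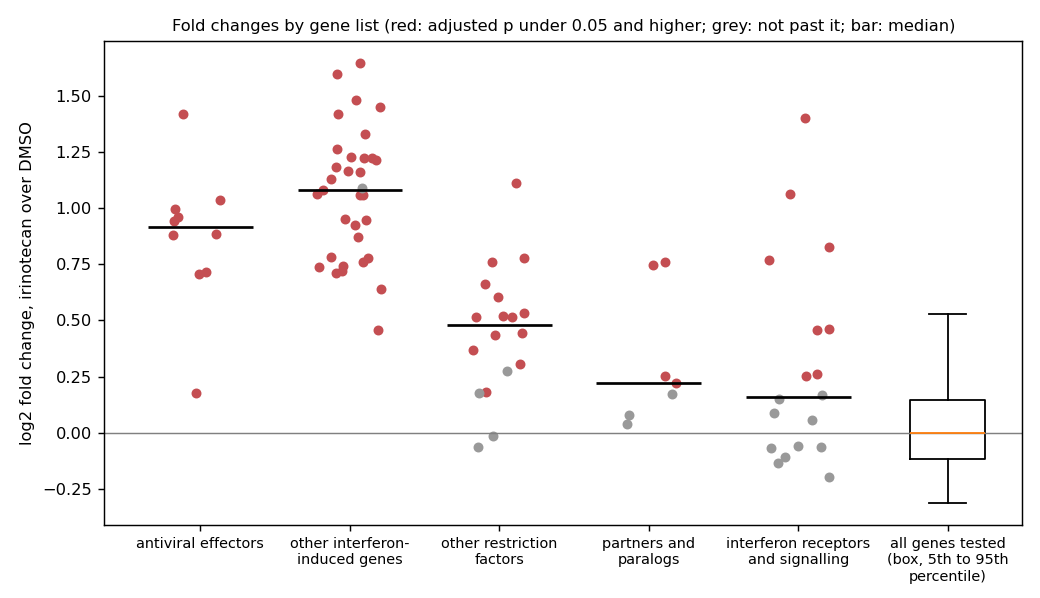
Log2 fold change of irinotecan over DMSO for each measured gene of 5 lists (points; red passed the test as higher, grey did not pass; bar, median), beside a box of all genes tested with whiskers at the 5th and 95th percentiles. The medians are 0.91, 1.08, 0.48, 0.22 and 0.16 from left to right.

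The genes outside the 10 whose profile was most like their average were sought among 9770 genes of at least 5 CPM with irinotecan, by the root mean square difference over the 6 libraries in log2 CPM, each gene taken relative to its own DMSO mean. They were *H2-T22*, a nonclassical MHC class I gene, at 0.037, *Parp12* at 0.042, *Apol9b* at 0.057, *Dtx3l*, a ubiquitin ligase, at 0.072 and *Tapbp*, the peptide-loading chaperone tapasin, at 0.073. *H2-T22* went from 20.0 to 35.9 CPM and *Tapbp* from 76.9 to 135 CPM. Of the 10 genes themselves *Rtp4* lay closest to the average at 0.046, and *Cmpk2* and *Ifitm2* farthest at 0.40 and 0.50. MHC and apolipoprotein L genes have near-identical copies, and counts of single copies are uncertain.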

How the data were processed

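RNA of 3 DMSO and 3 irinotecan libraries was measured, grouped by their titles. The submitters' processing notes name, with no order, edgeR 3.24.3, DESeq2 1.22.1, HISAT2 2.1.0, fastp 0.19.3, StringTie 1.3.4d, featureCounts 1.6.2 and the build GRCm39. Each library has a column of counts and a column of FPKM deposited by the authors, per the file headers. Counts are unnormalized. FPKM served to compare levels between genes and to show each gene's level in both groups, and entered no test. The authors' deposited table also holds a log2 fold change, whose sign is opposite to irinotecan over DMSO in the counts (correlation -1.0), and p-values. The table holds no count of 0, and the smallest total of a gene was 58, so lowly counted genes were removed before deposit.

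The test on counts used edgeR 4.0.16 in R 4.3.3: filterByExpr (5 genes did not pass), TMM, robust glmQLFit and glmQLFTest, Benjamini-Hochberg adjustment over all genes and a threshold of 0.05. SE is the absolute log2 fold change over the root of F; intervals cover 95%. Log2 CPM used a prior count of 2. Each library held 16052326 to 17294496 counts, and the common coefficient of variation was 5.57%. Between replicates of a group chi-square per degree of freedom was 4.24 to 6.45, above sampling noise. Alternatives were RLE and total-count scaling, no filter, DESeq2 1.42.0, limma-voom (limma 3.58.1), a replicate block, and each library left out. Genes and lists were chosen with earlier results of these data known; named genes are the 10, called partners and paralogs, the 4 smallest p of each other list, listed markers, and a set of fixed interferon genes, 1 of which is not reported here. Reads of BALB/c cells on a C57BL/6 reference can be lost at polymorphic genes. Promoters come from RefSeq on GRCm38.p6 and transcript words from GENCODE M21; no coordinate was carried between builds.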

Additional observations from a re-analysis of the deposited data

How the results depend on the processing

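Over 12 alternatives, 9 of the 10 genes kept their direction and passed the threshold under each alternative run, with log2 fold changes from 0.63 (*Ifitm3*) to 1.58 (*Cmpk2*). *Ifitm2* lost its call with RLE size factors (log2 fold change 0.17, edgeR adjusted p = 0.053) and DESeq2 (0.17, adjusted p = 0.077), and with libraries left out its log2 fold change ran from 0.12 to 0.21; the cause was not tested. The median of the 10 ran from 0.86 to 0.98 with a library left out. The number at least 2-fold higher ran from 1 to 5 there. Over the whole table, leaving out a library gave 1393 to 2362 genes called, 804 to 1211 higher and 589 to 1151 lower, and with the replicate block 3628 were called, 1808 higher and 1820 lower, against 2559, 1369 and 1190. The haematopoietic marker call higher and the epithelial marker call lower ran from 0 to 1 with a library left out.

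The replicate numbers were not taken as pairs: deviations of same-numbered libraries correlated at 0.12, 0.04 and 0.085, though each library correlated best with its own number, a hint from the data and not from the design. The block changed no call among the 10 genes. Depth limits *Rsad2* and *Cmpk2* most, whose counts were 78 to 304 per library.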
